A study of Homo sapiens with 8 samples.

Results

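The 43 genes described here encode the glycolytic pathway, the handling of lactate, the regulators and targets of the hypoxia-inducible factors (HIF) and the glucose-sensing regulators around TXNIP. They were taken by symbol from the 38637 genes of the deposited table, and all 43 were found. By role they are 2 glucose transporters, 3 genes of hexose phosphorylation and isomerisation, 5 of the phosphofructokinase step, 3 of aldolase and triose isomerase, 6 of lower glycolysis, 6 of lactate and pyruvate handling, 4 HIF subunits and prolyl hydroxylases, 10 other HIF targets and 4 genes of glucose sensing. RNA-seq covered 8 libraries of SW1990, an established human pancreatic adenocarcinoma cell line, in 4 groups of 2 libraries. The Vector group carried the empty vector and the EBF2-OE group overexpressed EBF2, a transcription factor of the early B-cell factor family. In both, the libraries are numbered 2 and 3. The Vehicle group received vehicle, and the GSK-LSD1 group received GSK-LSD1, an inhibitor of the histone demethylase KDM1A, at a dose that the titles give as 2000 µM. This exceeds the doses that the study names for its blots of treated cells, and its unit could not be checked, so the dose itself is uncertain. In these 2 groups the libraries are numbered 1 and 2. A figure legend of the study calls the sequenced cells SW1990-luc, a luciferase-labelled form of the line, whereas the labels name only SW1990. The labels name no further allele or agent and give neither the time of treatment nor the medium nor the oxygen level. The methods name plasmid transfection for the study's cells and do not say whether the sequenced EBF2-OE cells were a pool or a clone. Nothing states that the 2 libraries of a group came from separate cultures, so the p-values measure the spread between these libraries, which may be technical.

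Glycolysis splits glucose into pyruvate in a chain of cytosolic enzymes, and lactate dehydrogenase turns pyruvate into lactate when it is not burned in mitochondria. HIF1A and EPAS1 are the oxygen-labile subunits of HIF. Prolyl hydroxylases of the EGLN family mark them for destruction when oxygen is present, and when it is scarce they raise transcription of most glycolytic enzymes, of VEGFA and of CA9. MLXIP and MLXIPL, also known as MondoA and ChREBP, are transcription factors that respond to glucose-derived metabolites, and TXNIP and its relative ARRDC4 are their best-known targets. Both are arrestin-like proteins that restrain glucose uptake. Pancreatic cancer cells are known for high glycolytic flux.

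The libraries held between 20453362 and 27054876 counts on genes. EBF2 itself had 28 counts in each Vector library, 5818 in EBF2-OE 2 and 90100 in EBF2-OE 3, so EBF2-OE 3 stood apart from its fellow. The 2 libraries of every group differed by more than counting error, with a chi-square per degree of freedom from 5.34 in GSK-LSD1 to 32.9 in EBF2-OE. Of the markers of pancreatic epithelium, KRT7 was at 459 to 841 TPM, the deposited length-adjusted unit, and KRT8 at 2186 to 3094 TPM. KRT19 lay at 0 to 1.57 TPM, EPCAM at 0.249 to 1.42 TPM and CDH1 at 0.186 to 1.12 TPM, so 3 of 8 epithelial markers were near 0. The pan-leukocyte gene PTPRC stayed at or below 0.122 TPM, while COL1A1 reached 45.2 TPM and CD68 30.9 TPM. Of 5 endothelial markers, 4 stayed under 1 TPM in all libraries, the exception being CDH5. All libraries came from the same cell line. In its bulk RNA, fewer cells with a marker and less of its RNA per cell cannot be told apart.

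Compared per length in TPM, GAPDH had the highest level of the 43 genes (8119 to 10995 TPM), followed by ENO1 (3168 to 4682 TPM) and LDHA (1730 to 3555 TPM), with ALDOA at 1650 to 3215 TPM overlapping LDHA. PDK3, a pyruvate dehydrogenase kinase, had the lowest median over the libraries (1.13 to 2.52 TPM), overlapping MLXIPL (1.47 to 8.99 TPM), which was below it in EBF2-OE 2. The 17 glycolytic enzymes from hexokinase to pyruvate kinase held 1.72% and 1.76% of all TPM in Vehicle 1 and 2, 1.88% and 1.92% in GSK-LSD1 1 and 2, 2.42% and 2.34% in Vector 2 and 3, and 2.58% and 2.29% in EBF2-OE 2 and 3. Vehicle was thus the lowest group, GSK-LSD1 lay just above it, and Vector and EBF2-OE overlapped each other above both. Among isozymes, SLC2A1, the basal glucose transporter, held 95.6% to 98.0% of the summed TPM of SLC2A1 and SLC2A3. HK1 held 64.3% to 74.3% of the 2 hexokinases. HIF1A held 53.6% to 57.4% of the summed TPM of HIF1A and EPAS1. LDHA held 59.3% to 60.4% of the lactate dehydrogenase TPM in the Vehicle and GSK-LSD1 libraries and 66.1% to 70.5% in the Vector and EBF2-OE libraries, with no overlap between those pairs of groups.

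**Figure D1:**
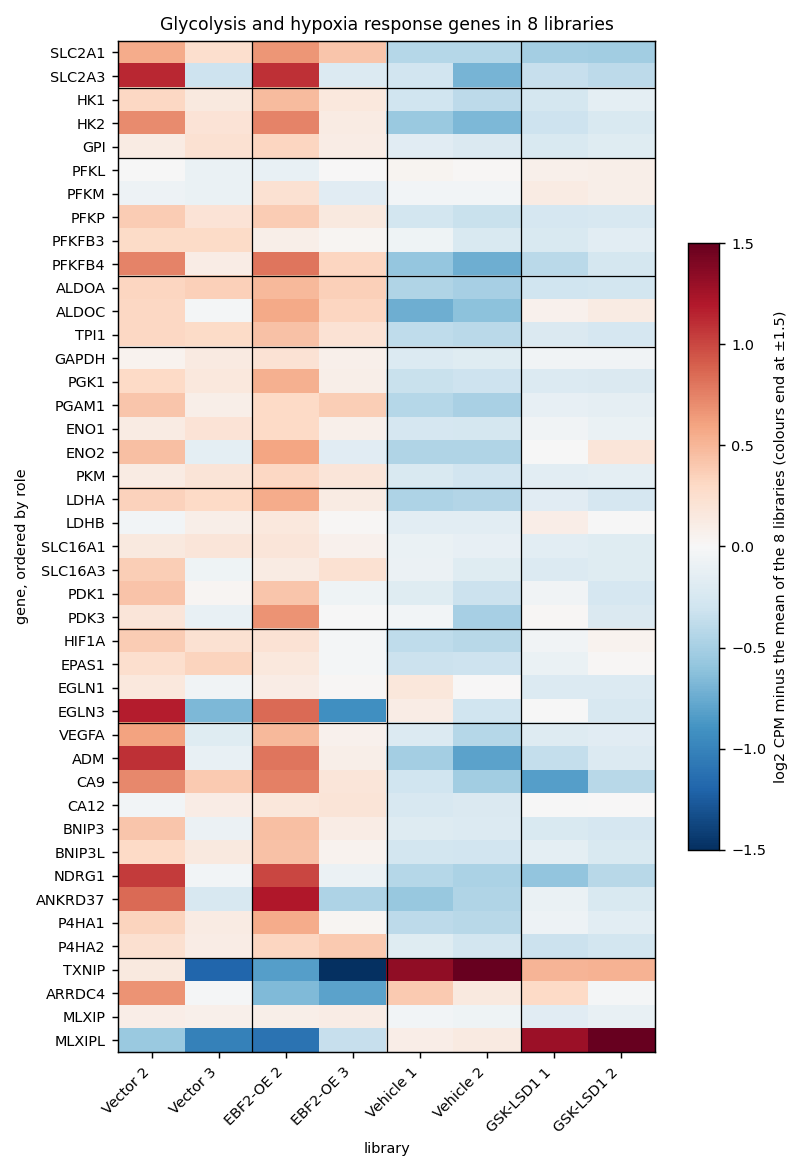
Level of each of the 43 genes (rows, ordered by role, with lines between roles) in each of the 8 libraries (columns), as log2 CPM minus the gene's mean over the 8 libraries; colours end at plus or minus 1.5. Most rows are redder in the 4 Vector and EBF2-OE libraries than in the 4 Vehicle and GSK-LSD1 libraries, and TXNIP and MLXIPL show the reverse.

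To show which letters the transcription factors of these pathways are known to read, the 250 bases before each start site in the RefSeq promoter table (GRCh38.p14) were searched on both strands. Of the 43 genes, 38 had an entry. The E-box CACGTG was found for 9 genes (23.7% of the 38, against 7.73% of all 27305 genes), the HIF core ACGTG for 22 (57.9% against 21.7%) and the alternative HIF core GCGTG for 21 (55.3% against 36.2%). Every CACGTG also holds ACGTG, so these counts overlap. The list was chosen to include known HIF targets and glucose-sensing genes, so these shares are a description and no test. A gene was counted if any of its listed start sites matched, which favours genes with several starts. The share per promoter was not counted for the 38. Counted per promoter, the shares of all 35116 were 6.34%, 18.5% and 32.2%. The arrangement of a pair of half-sites CACGNG set apart by 5 bases, as in the carbohydrate response elements bound by MLXIP and MLXIPL, was found in 0.0456% of promoters and among these genes in TXNIP and P4HA1. A match describes letters and not a site in use. Stretches of 5 of these promoters that hold matches are shown as examples, whether or not their genes were called below. Each runs from 5′ to 3′ on the gene's strand with the matched letters in capitals. TXNIP (chr1:145996640-145996699, reverse strand) shows the paired half-sites. ARRDC4 (chr15:97960473-97960572, forward strand) holds a CACGTG and several GCGTG, some read on the other strand as CACGC. ALDOC (chr17:28577091-28577140, reverse strand), LDHA (chr11:18394373-18394502, forward strand) and ANKRD37 (chr4:185396671-185396710, forward strand) hold CACGTG, and in LDHA and ANKRD37 a further ACGTG on either strand.
TXNIP: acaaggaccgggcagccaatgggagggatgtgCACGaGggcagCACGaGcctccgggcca
ARRDC4: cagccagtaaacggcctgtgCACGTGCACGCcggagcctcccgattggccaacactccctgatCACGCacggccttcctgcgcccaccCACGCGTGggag
ALDOC: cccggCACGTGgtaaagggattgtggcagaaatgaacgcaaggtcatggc
LDHA: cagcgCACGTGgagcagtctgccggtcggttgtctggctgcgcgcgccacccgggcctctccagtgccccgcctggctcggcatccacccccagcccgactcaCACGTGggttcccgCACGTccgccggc
ANKRD37: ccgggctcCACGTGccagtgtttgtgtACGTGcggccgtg

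GSK-LSD1 was compared with Vehicle to ask how these genes differed under treatment with the compound. Whether the differences ran through KDM1A was not tested. TXNIP fell by 46.6%, ALDOC rose 1.70-fold and MLXIPL rose 2.43-fold. Smaller increases ran through most of the glycolytic enzymes and the RNA of both HIF alpha subunits. A gene was called when its fold change exceeded 1.5 and its adjusted p was under 0.05 in edgeR's quasi-likelihood (QL) test, adjusted by Benjamini-Hochberg over 16059 genes. By this rule 2 of the 43 genes rose, against 2.53% of all genes tested, and 1 fell, against 2.04%. Without the fold limit, a count added after seeing the data, 16 of the 43 passed as higher, against 9.86% of all genes, and 2 as lower, against 8.87%. The median log2 fold change of the 43 was 0.13, beside -0.01 over all genes tested, and 29 were positive and 14 negative. In 26 both GSK-LSD1 libraries lay above both Vehicle libraries (30.5% of all genes did) and in 8 both lay below (29.7%). Cell type markers moved beside them. KRT7 (-0.69), KRT8 (-0.30) and KRT18 (-0.45) were lower and KRT17 (0.89) higher under GSK-LSD1, and the 8 epithelial markers summed to 7354 to 7481 TPM in Vehicle and 5754 to 5799 TPM in GSK-LSD1. Of the other lists, 2 of 6 fibroblast markers and 1 of 6 immune markers passed as higher and 1 of 5 endothelial markers as lower. The part of these markers in the results was not tested.

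In hg38, TXNIP spans 145992435 to 145996579 of chromosome 1, reverse strand. Its level, in CPM (the count per library size, after TMM scaling over all 8 libraries), was 228 and 255 in Vehicle 1 and 2 and 128 and 129.8 in GSK-LSD1 1 and 2. The GSK-LSD1 libraries lay close together and far below both Vehicle libraries. The log2 fold change was -0.91 (SE 0.0606) with an edgeR adjusted p of 8.99e-06. ARRDC4, on the forward strand of chromosome 15 from 97960703 to 97973833, had 8.45 and 7.08 CPM in Vehicle and 7.89 and 6.28 CPM in GSK-LSD1. These groups overlapped, and the log2 fold change of -0.13 (SE 0.151) did not pass (edgeR adjusted p = 0.597). MLXIPL, on the reverse strand of chromosome 7 from 73593201 to 73624522, had 5.28 and 5.42 CPM in Vehicle and 12.1 and 14.1 CPM in GSK-LSD1. Both treated libraries stood far above both controls, with a log2 fold change of 1.28 (SE 0.129) and an edgeR adjusted p of 1.16e-04. MLXIP had 119 and 117 CPM against 109 and 113 CPM, a log2 fold change of -0.09 that did not pass (SE 0.0512, edgeR adjusted p = 0.249). In TPM, MLXIPL held 8.66% and 8.995% of the summed MLXIP and MLXIPL in Vehicle and 19.1% and 21.0% in GSK-LSD1, so the more abundant member of the pair in every library was MLXIP. When all 8 libraries shared 1 estimate of the spread, the edgeR adjusted p was 0.416 for TXNIP and 0.0661 for MLXIPL.

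Of the 17 glycolytic enzymes, with PFKFB3 and PFKFB4 counted among them, 15 had positive log2 fold changes under GSK-LSD1. At an edgeR adjusted p under 0.05, 9 passed as higher (9.86% of all genes) and 0 as lower (8.87%). Of the 9, 1 exceeded the fold limit (2.53% of all genes). That one was ALDOC, the brain-type aldolase, on the reverse strand of chromosome 17 from 28573115 to 28576963. It had 88.4 and 95.9 CPM in Vehicle and 153 and 160.3 CPM in GSK-LSD1. The groups were well apart, with a log2 fold change of 0.76 (SE 0.0567, edgeR adjusted p = 1.70e-05), and the call held when all 8 libraries were fitted together (adjusted p = 0.0458). ALDOC held 7.35% and 8.17% of the aldolase TPM in Vehicle and 11.0% and 11.3% in GSK-LSD1. The neuronal enolase ENO2 came next, with 65.4 and 65.3 CPM in Vehicle and 88.9 and 100.9 CPM in GSK-LSD1 (log2 fold change 0.53, SE 0.0679). HK2, the hexokinase that HIF is known to induce, had 100.04 and 92.8 CPM in Vehicle and 119 and 126 CPM in GSK-LSD1 (0.34, SE 0.0578). PGAM1 (0.33, SE 0.0451) and PFKFB4 (0.33, SE 0.0786), a bifunctional enzyme that sets the phosphofructokinase activator, also rose. For these 4 genes the edgeR adjusted p lay between 4.87e-04 and 0.0161. ALDOA, TPI1, GAPDH and ENO1 passed with log2 fold changes of 0.19, 0.16, 0.14 and 0.18. PFKFB3, the other such bifunctional enzyme here, had 49.4 and 44.1 CPM against 44.1 and 46.1 CPM (log2 fold change -0.05, SE 0.073), and GPI had -0.01. In lower glycolysis, from GAPDH to PKM, all 6 genes had both GSK-LSD1 libraries above both Vehicle libraries (30.5% of all genes did). Of these 6, 4 passed, the exceptions being PGK1 (edgeR adjusted p = 0.0726) and PKM (0.0749).

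Of the glucose transporters 0 of 2 passed. Of the genes of lactate and pyruvate handling 2 of 6 passed, both as higher (9.86% of all genes). SLC2A1 had 150.0 and 150.1 CPM in Vehicle and 142 and 141 CPM in GSK-LSD1, a log2 fold change of -0.09 (SE 0.0481) that did not pass (edgeR adjusted p = 0.239). LDHA had 1665 and 1696 CPM in Vehicle and 2046 and 1939.7 CPM in GSK-LSD1, and rose by 0.24 on the log2 scale (SE 0.0387, edgeR adjusted p = 0.00192). LDHB rose by 0.20 (SE 0.044). The lactate exporters SLC16A1 and SLC16A3 had log2 fold changes of -0.06 and -0.07 and did not pass, nor did the kinases PDK1 and PDK3 (0.10 and 0.16).

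The RNA of both HIF alpha subunits rose under GSK-LSD1 while that of the oxygen sensor EGLN1 fell, all under the fold limit. None of these passed when all 8 libraries were fitted together, and protein was not measured here. HIF1A, on the forward strand of chromosome 14 from 61695513 to 61748258, had 143 and 140.3 CPM in Vehicle and 179.9 and 194 CPM in GSK-LSD1. EPAS1, on the forward strand of chromosome 2 from 46297407 to 46386697, had 157 and 157 CPM against 182 and 197 CPM. Neither gene had overlapping groups, and the log2 fold changes were 0.40 (SE 0.0537, edgeR adjusted p = 7.19e-04) and 0.27 (SE 0.0543, adjusted p = 0.00672). EGLN1, the main HIF prolyl hydroxylase, had 85.7 and 76.9 CPM against 66.4 and 66.1 CPM (-0.30, SE 0.0651, edgeR adjusted p = 0.0101). EGLN3, itself a HIF target, had -0.04 (SE 0.163). Of the 10 other HIF targets, 2 passed as higher (9.86% of all genes) and 0 as lower (8.87%). ADM, the vasodilator peptide adrenomedullin, had 30.7 and 25.1 CPM in Vehicle and 34.2 and 38.1 CPM in GSK-LSD1 (0.37, SE 0.0998, edgeR adjusted p = 0.0255), and P4HA1, a collagen prolyl hydroxylase, rose by 0.28 (SE 0.0598). VEGFA, the angiogenic growth factor, had 79.0 and 67.6 CPM against 79.7 and 81.1 CPM and did not pass (0.13, SE 0.0733, edgeR adjusted p = 0.246). CA9, the carbonic anhydrase used as a hypoxia marker, had 12.9 and 11.1 CPM against 8.98 and 11.9 CPM and overlapped (-0.21, SE 0.144, edgeR adjusted p = 0.362). Of the 10 targets, 6 had positive and 4 negative values.

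**Figure D2:**
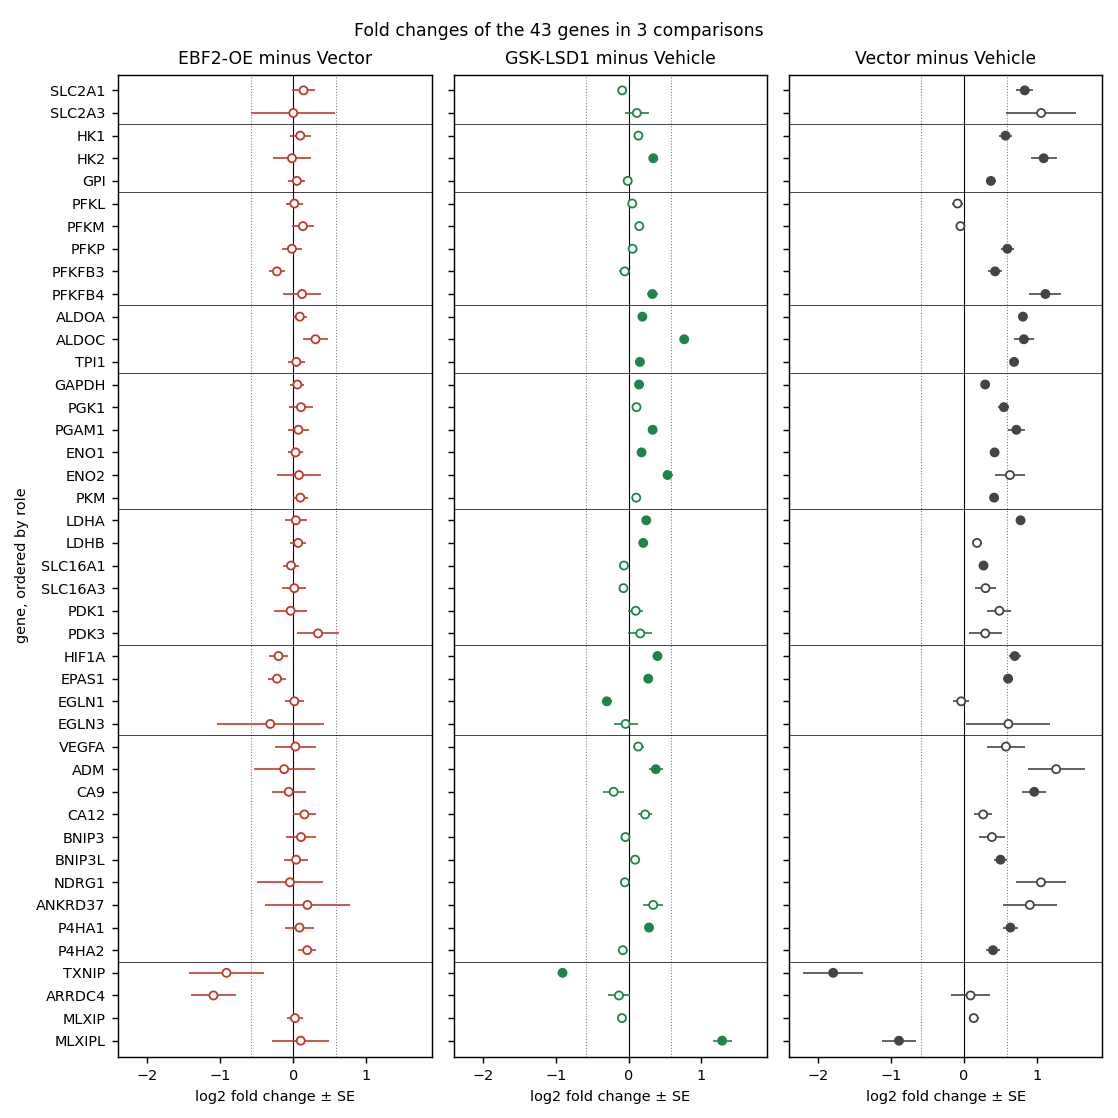
Log2 fold change with its standard error (horizontal bars) of each of the 43 genes, ordered by role, in EBF2-OE minus Vector, GSK-LSD1 minus Vehicle and Vector minus Vehicle; filled points have an edgeR adjusted p under 0.05 and dotted lines mark a fold change of 1.5. GSK-LSD1 has short bars with MLXIPL at 1.28 and TXNIP at -0.91, EBF2-OE has no filled point, and most genes lie to the right in Vector minus Vehicle.

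Of 109 other genes of glycolysis, HIF and glucose sensing listed beside the 43, 91 were tested. Of these, 6 were called higher (2.53% of all genes) and 0 lower (2.04%). Without the fold limit 24 passed as higher (9.86% of all genes) and 7 as lower (8.87%). KHK, the fructose kinase, had 2.02 ± 0.256 CPM in Vehicle and 6.15 ± 0.361 CPM in GSK-LSD1 (SD, n = 2 libraries each), a log2 fold change of 1.59 (SE 0.175). HKDC1, a hexokinase-like enzyme, rose by 1.495 (SE 0.182) from 2.08 ± 0.231 CPM. LDHD, which oxidises D-lactate, rose by 0.88 (SE 0.12), the pyruvate dehydrogenase phosphatase PDP2 by 0.68 (SE 0.0904), the glucose transporter SLC2A6 by 0.62 (SE 0.0801) and the secreted glycoprotein STC2 by 0.61 (SE 0.0645). All 6 had an edgeR adjusted p between 1.48e-04 and 7.55e-04. Fitting all 8 libraries together left 1 of these other genes called higher, and 1 of the 43 (ALDOC) called higher and 0 lower, with or without the fold limit.

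EBF2-OE was compared with Vector to ask whether raising EBF2 moved these genes. By edgeR's quasi-likelihood test, 0 of the 43 were called higher and 0 lower, and the background was 0% in either direction over 15560 genes tested. No gene passed at all, the overexpressed EBF2 included, with 28 counts in each Vector library and 5818 and 90100 in EBF2-OE 2 and 3. The absence of calls therefore does not show that the 43 genes were unmoved. At an unadjusted p under 0.05 with the fold limit, 0 of the 43 were higher (0.733% of all genes) and 1 was lower (0.219%). DESeq2 also called 0 of the 43 in either direction. The median log2 fold change of the 43 was 0.04, beside 0.00 over all genes, and its sign turned when single libraries were left out, from -0.09 without Vector 3 to 0.16 without Vector 2. The edgeR fit gave a biological coefficient of variation of 19% here and 5.87% between GSK-LSD1 and Vehicle, so a change of given size was harder to detect. Both EBF2-OE libraries lay above both Vector libraries in 4 genes (ALDOA, ALDOC, CA12 and P4HA2; 11% of all genes did) and below in 4 (PFKFB3, HIF1A, EPAS1 and ARRDC4; 11.4%).

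The 1 gene at an unadjusted p under 0.05 was ARRDC4, with 10.3 and 6.33 CPM in Vector 2 and 3 and 4.07 and 3.66 CPM in EBF2-OE 2 and 3. The groups did not overlap, though the Vector libraries were further apart than the EBF2-OE libraries. Its log2 fold change was -1.09 (SE 0.311, unadjusted p = 0.0122, edgeR adjusted p = 1), from 82 to 217 counts a library, and it ranged from -1.41 without Vector 3 to -0.69 without Vector 2. TXNIP had 99.8 and 39.5 CPM in Vector and 50.9 and 23.0 CPM in EBF2-OE. Here the groups overlapped, and within each group the library numbered 2 was the higher one, 2.53 times in Vector and 2.22 times in EBF2-OE. The log2 fold change was -0.92 (SE 0.516, edgeR adjusted p = 1) and became -1.60 without EBF2-OE 2, -1.44 without Vector 3, -0.46 without EBF2-OE 3 and -0.07 without Vector 2. Without the low-count filter TXNIP passed (log2 fold change -0.93, edgeR adjusted p = 5.86e-05), and with the library number as a block its adjusted p was 0.129. The share of all genes that passed without that filter was not counted, so this pass is not shown to be particular to TXNIP. MLXIP had 131 and 129 CPM against 130.3 and 132 CPM (log2 fold change 0.02, SE 0.116), and MLXIPL had 3.35 and 2.44 CPM against 2.28 and 3.89 CPM (0.10, SE 0.39).

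**Figure D3:**
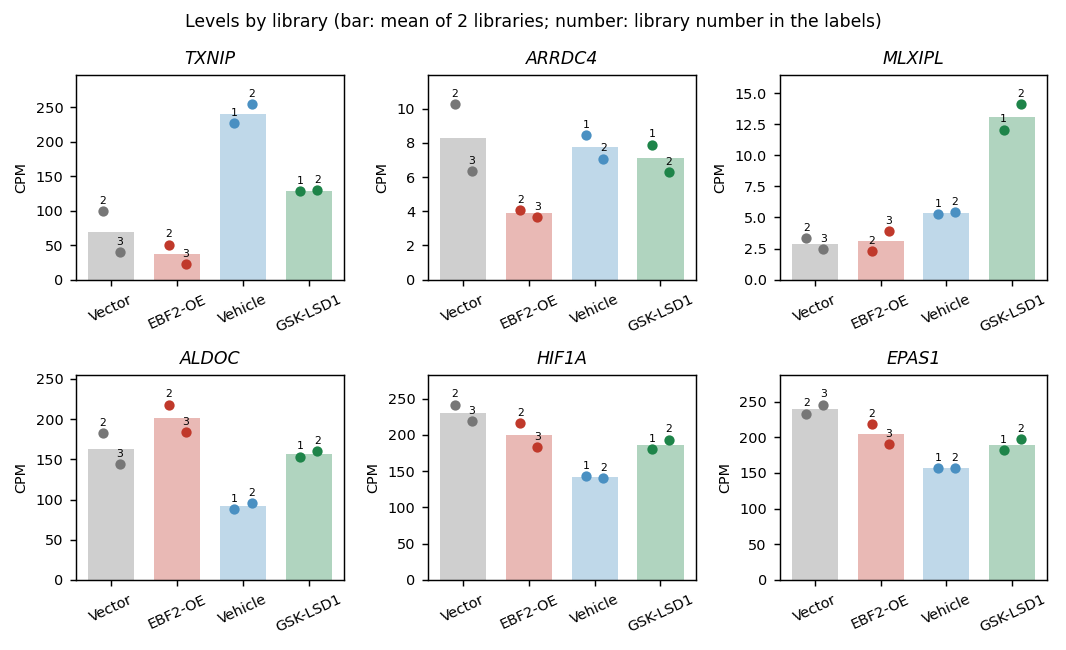
CPM (linear axis from 0) of TXNIP, ARRDC4, MLXIPL, ALDOC, HIF1A and EPAS1 in each library; bars are the mean of 2 libraries, points the libraries, and the figures at the points the numbers in the labels. TXNIP runs from 23.0 CPM in EBF2-OE 3 to 255 CPM in Vehicle 2, and MLXIPL is highest in both GSK-LSD1 libraries.

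HIF1A had 242 and 219 CPM in Vector and 216 and 183 CPM in EBF2-OE, and EPAS1 had 233 and 246 CPM against 218 and 190.4 CPM. For both genes the EBF2-OE libraries were the lower pair, by -0.20 (SE 0.137) and -0.22 (SE 0.123) on the log2 scale, and neither passed. PFKFB3 had 63.2 and 62.8 CPM against 54.7 and 52.6 CPM (-0.22, SE 0.115), and ALDOC had 183 and 144 CPM against 218 and 184 CPM (0.30, SE 0.166). The remaining genes fixed for naming were closer to 0. SLC2A1 had a log2 fold change of 0.14 (SE 0.156), HK2 of -0.02 (SE 0.255), PFKFB4 of 0.12 (SE 0.255), LDHA of 0.04 (SE 0.154), VEGFA of 0.03 (SE 0.283) and CA9 of -0.06 (SE 0.236), all with overlapping groups. Over all 43 genes the values ran from ARRDC4 up to PDK3 (0.34, SE 0.284), and within the roles not yet named the extremes were small, such as HK1 (0.10), PFKM (0.13), TPI1 (0.04), PGK1 (0.11) and PDK1 (-0.04). The widest errors were those of EGLN3 (SE 0.735), ANKRD37 (SE 0.582) and SLC2A3 (SE 0.574). Of the 109 other pathway genes, 92 were tested and 0 were called in either direction. At an unadjusted p under 0.05 with the fold limit, 1 was higher (0.733% of all genes) and 0 lower (0.219%).

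Many of the 43 genes separated by library number. In 24 of the 43 genes both libraries numbered 2 (Vector 2 and EBF2-OE 2) lay above both numbered 3, against 21.6% of all genes, and in 0 genes did they lie below, against 23% of all genes. This is a description with no test, since the labels do not say what the numbers stand for. More than 1.5-fold separated them in 6 genes (2.06% of all genes), and 0 genes were separated that far the other way (2.84%). NDRG1, a stress-responsive HIF target, had 1106 and 518 CPM in Vector 2 and 3 and 1070 and 503 CPM in EBF2-OE 2 and 3. EGLN3 had 15.8 and 4.37 CPM in Vector and 12.6 and 3.66 CPM in EBF2-OE. The others were ADM (93.7 and 40.4 CPM, then 76.4 and 46.5 CPM), ANKRD37 (13.8 and 6.50 CPM, then 17.7 and 5.58 CPM), SLC2A3 (15.4 and 5.65 CPM, then 15.0 and 6.12 CPM) and ENO2 (122 and 80.7 CPM, then 135 and 79.2 CPM). In each of these the number-2 libraries were alike across EBF2-OE and Vector, and so were the number-3 libraries. By role, 8 of the 10 other HIF targets had both number-2 libraries on top, among them VEGFA (138 and 80.4 CPM, then 128 and 95.0 CPM). Of the 6 genes of lower glycolysis, 2 lay on that side (PGK1 and ENO2), and GAPDH, which did not, had 6501 and 6890 CPM, then 7271 and 6593 CPM. In the Vehicle and GSK-LSD1 groups, the ratio of number 1 over number 2 was 1.03 and 0.889 for NDRG1 and 1.32 and 1.172 for EGLN3. EBF2-OE 3, which carried the most EBF2 counts, is one of the number-3 libraries and Vector 3, with 28 EBF2 counts, is the other. The part of culture or handling in this pattern was not tested.

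**Figure D4:**
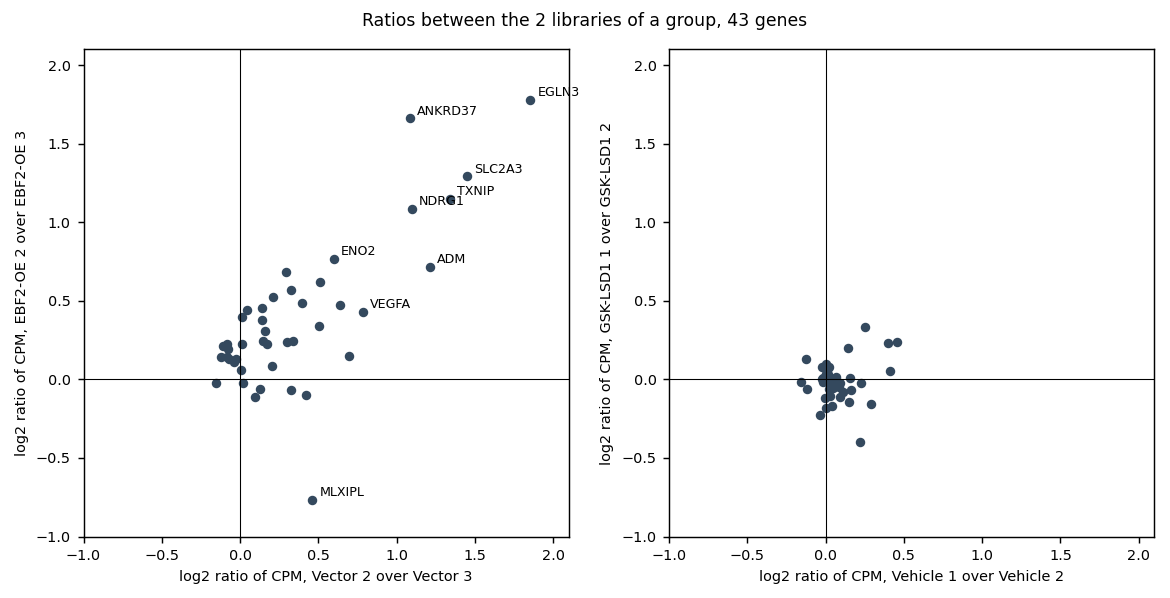
Log2 ratio of CPM between the 2 libraries of a group for each of the 43 genes; left, number 2 over number 3 in Vector (horizontal) and EBF2-OE (vertical), right, number 1 over number 2 in Vehicle and GSK-LSD1, on the same axes. Points on the left spread up to the right, with EGLN3, ANKRD37, SLC2A3, NDRG1 and TXNIP farthest out, while points on the right stay near 0.

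The 2 control groups, Vector and Vehicle, differed widely. They belong to different experiments, so the empty vector, the vehicle, culture and sequencing cannot be told apart. Both groups serve as controls above, so this comparison shares libraries with the other 2. Of the 43 genes, 13 were called higher in Vector (5.79% of 16019 genes tested) and 2 lower (10.2%), by edgeR's quasi-likelihood test. Without the fold limit 23 passed as higher (13.6%) and 2 as lower (13.2%). The median log2 fold change of the 43 was 0.55, beside 0.00 over all genes, and 38 were positive and 5 negative. In 34 both Vector libraries lay above both Vehicle libraries (35.7% of all genes did) and in 4 below (35%). Markers moved between these groups too. The 8 epithelial markers summed to 7354 to 7481 TPM in Vehicle and 5528 to 5647 TPM in Vector, with KRT18 (-0.99) and KRT8 (-0.49) lower and KRT17 (1.71) higher at an edgeR adjusted p under 0.05. The 5 endothelial markers summed to 5.4998 to 5.66 TPM against 1.174 to 1.34 TPM, with CDH5 (-3.09) and VWF (-2.38) lower. The 6 immune markers summed to 16.8 to 20.1 TPM against 24.8 to 32.4 TPM, with CD68 higher (0.96), CD3E at 0 in all libraries and PTPRC near 0. The 6 fibroblast markers summed to 57.7 to 58.7 TPM against 51.5 to 56.4 TPM, with PDGFRB (-1.57) and COL3A1 (-0.81) lower. Their part in the results was not tested. With Vehicle 1 left out 0 of the 43 genes were called higher and 0 lower, with Vehicle 2 left out 2 and 0, and with Vector 3 left out 23 and 2.

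TXNIP, at 228 and 255 CPM in Vehicle and 99.8 and 39.5 CPM in Vector, was 71.2% lower in Vector (log2 fold change -1.79, SE 0.415, edgeR adjusted p = 0.0311). Both Vector libraries were far below both Vehicle libraries. MLXIPL was the other lower gene, with 5.28 and 5.42 CPM against 3.35 and 2.44 CPM (-0.89, SE 0.237, edgeR adjusted p = 0.0439). ARRDC4 overlapped (0.09, SE 0.27), and MLXIP had a log2 fold change of 0.13 (SE 0.0713) and did not pass. Among transporters and upper glycolysis, SLC2A1 had 150.0 and 150.1 CPM in Vehicle and 296 and 240.2 CPM in Vector (0.83, SE 0.117). HK2 had 100.04 and 92.8 CPM against 242 and 170.3 CPM (1.09, SE 0.177), PFKFB4 38.1 and 34.4 CPM against 95.9 and 61.7 CPM (1.12, SE 0.221), and PFKP was higher by 0.60 (SE 0.0862). PFKFB3 passed under the fold limit (0.43, SE 0.0969). In these genes every Vector library lay above every Vehicle library.

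Among the other enzymes, ALDOA (0.81, SE 0.0602), ALDOC (0.82, SE 0.134), TPI1 (0.69, SE 0.0608) and PGAM1 (0.72, SE 0.121) were called higher in Vector. LDHA had 1665 and 1696 CPM in Vehicle and 2933 and 2840.2 CPM in Vector (0.78, SE 0.0616, edgeR adjusted p = 0.00623), while LDHB did not pass (0.18, SE 0.0679). GAPDH, often used as a reference gene, was higher by 0.29 (SE 0.0594) and PKM by 0.41 (SE 0.0625), both past the adjusted p and under the fold limit, as were GPI, HK1, PGK1 and ENO1. PFKL (-0.09, SE 0.0723) and PFKM (-0.05, SE 0.0662) were the only glycolytic enzymes of the 17 with negative values, and neither passed. Of the 17, 14 passed an edgeR adjusted p under 0.05 as higher (13.6% of all genes), 7 beyond the fold limit (5.79%).

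HIF1A had 143 and 140.3 CPM in Vehicle and 242 and 219 CPM in Vector (0.70, SE 0.0831), and EPAS1 157 and 157 CPM against 233 and 246 CPM (0.61, SE 0.0687). CA9 had 12.9 and 11.1 CPM against 26.1 and 20.8 CPM (0.97, SE 0.167), and P4HA1 was higher by 0.64 (SE 0.104). These 4 had an edgeR adjusted p between 0.00869 and 0.0162. All 10 other HIF targets were higher in both Vector libraries than in both Vehicle libraries (35.7% of all genes were). Of them 4 passed the adjusted p as higher (13.6% of all genes) and 2 the fold limit too (5.79%). ADM had the largest value (1.27, SE 0.392) but its Vector libraries lay at 93.7 and 40.4 CPM and it did not pass (edgeR adjusted p = 0.0636). NDRG1 (1.06, SE 0.339, adjusted p = 0.0694) and VEGFA (0.58, SE 0.26, adjusted p = 0.149) were in the same position. EGLN1 had -0.04 (SE 0.112).

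Of the 109 other pathway genes, 92 were tested between Vector and Vehicle, 19 were called higher (5.79% of all genes) and 4 lower (10.2%). ARNT2, a HIF partner subunit, was 2.61 higher on the log2 scale (SE 0.477) with 3.80 ± 0.774 CPM in Vector against 0.623 ± 0.421 CPM in Vehicle (SD, n = 2 libraries each). STC2 was higher by 1.86 (SE 0.0872), HKDC1 by 1.62 (SE 0.208), BHLHE41 by 1.62 (SE 0.289), PPFIA4 by 1.43 (SE 0.302) and HMOX1, heme oxygenase, by 1.39 (SE 0.154). The insulin-regulated glucose transporter SLC2A4 was lower by -1.91 (SE 0.257), KHK by -1.64 (SE 0.393), the kinase PDK2 by -1.01 (SE 0.103) and the muscle enolase ENO3 by -0.65 (SE 0.157). All 10 had an edgeR adjusted p under 0.05, from 0.00577 to 0.0344.

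Whether the GSK-LSD1 effect differed from the EBF2-OE effect was tested as the difference of the 2 log2 fold changes over all 8 libraries. By edgeR's quasi-likelihood test, 0 of the 43 genes passed, beside 0% of 16558 genes tested, and DESeq2 also gave 0. At an unadjusted p under 0.05 there were 5 of the 43, beside 7.66% of all genes. For TXNIP, the difference was 0.01 with SE 0.597, an error too wide to tell like from unlike effects. The smallest adjusted p was that of HIF1A (difference 0.61, SE 0.145, edgeR adjusted p = 0.297), followed among the other 4 by EPAS1 (0.50, SE 0.13), MLXIPL (1.19, SE 0.377), ARRDC4 (0.97, SE 0.359) and ALDOC (0.47, SE 0.183).

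Some counts are uncertain because reads can belong to more than 1 gene. The library kit and counting are described without a strand setting, so it is not known whether reads of overlapping genes on opposite strands were separated. ANKRD37, with 1524 counts in all 8 libraries, overlaps UFSP2 (1548 counts) and LRP2BP (1049 counts) on the other strand. ALDOA (356067 counts) shares its strand and span with the readthrough locus LOC112694756 (311560 counts). VEGFA overlaps POLR1C on the same strand, with counts at 50.4% of those of VEGFA. On the other strand, BNIP3 overlaps PPP2R2D (37.7% of its counts), SLC16A3 overlaps CSNK1D (29.5%) and PFKM overlaps SENP1 (18.6%). HIF1A overlaps the antisense RNA HIF1A-AS2, whose counts came to 13.1% of those of HIF1A. Smaller overlaps of other genes are not listed. GAPDH, LDHA, PGK1, TPI1 and other glycolytic genes have many processed pseudogenes in the genome, and how reads matching both were counted is not given in the sources used here.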

How the data were processed

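Poly(A)-selected RNA from 8 libraries of SW1990 cells was sequenced. The authors aligned paired reads to hg38 with HISAT2, obtained raw counts per gene with HTSeq, and deposited these counts with gene lengths and coordinates. The deposited TPM equalled the count over the listed length, scaled to the library, within 4.73e-11. The members and all lists were chosen with earlier results of these data known.

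Tests used edgeR 4.0.16 under R 4.3.3 (quasi-likelihood test, TMM, filterByExpr with a minimum count of 10, two-sided, Benjamini-Hochberg adjustment over all genes tested), each comparison on its own 4 libraries and the difference of effects on 8. Standard errors came from the test statistic. Calls needed a fold change above 1.5 and an adjusted p under 0.05. Printed CPM used TMM factors over all 8 libraries. Named were TXNIP, ARRDC4, MLXIP, SLC2A1, HK2, PFKFB3, PFKFB4, LDHA, HIF1A, EPAS1, VEGFA and CA9, all called genes, the 10 largest under the fold limit, the extremes of each role and up to 6 other pathway genes per direction. Genes shown for the library numbers and the markers were named after their values were seen. Alternatives were DESeq2 1.42.0, its size factors in edgeR, a minimum of 10 counts in every library or no such filter, all 8 libraries together, a block for the library number, p-values without adjustment, calls without a fold limit and omission of each library. Tests were tried on simulated data. Promoters came from RefSeq (GRCh38.p14). The reads and the study's other assays were not analysed here.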

Additional observations from a re-analysis of the deposited data

Results flagged for a closer look

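In 3 of the 43 genes both treated libraries lay on 1 side of both controls under GSK-LSD1 and on the other side under EBF2-OE. Of all genes tested, 30.5% lay above and 29.7% below under GSK-LSD1, and 11% above and 11.4% below under EBF2-OE. The share of all genes on opposite sides was not counted, so the 3 are not shown to exceed it. They were picked by this separation, in the same libraries that gave the p-values below. For HIF1A the GSK-LSD1 effect minus the EBF2-OE effect was 0.607 on the log2 scale (SE 0.145, unadjusted p = 0.00267, edgeR adjusted p = 0.297), higher in 2 of 2 GSK-LSD1 libraries and lower in 2 of 2 EBF2-OE libraries. For EPAS1 it was 0.503 (SE 0.13, unadjusted p = 0.0043, edgeR adjusted p = 0.361), with the same directions. For P4HA2, a collagen prolyl hydroxylase, it was -0.261 (SE 0.126, unadjusted p = 0.0694, edgeR adjusted p = 0.696), with the EBF2-OE libraries above Vector (98.1 and 102 CPM against 92.0 and 84.3 CPM) and the GSK-LSD1 libraries below Vehicle (62.3 and 64.3 CPM against 68.7 and 64.7 CPM). None of the 3 differences passed the adjustment over 16558 genes.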

How the results depend on the processing

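With 2 libraries a group, the estimate of the spread limits these calls, and where 1 library was left out the lone library was assumed to vary like the other group. The cause of the changes below was not tested.

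Between GSK-LSD1 and Vehicle, fitting all 8 libraries left 1 of the 43 genes called higher and 0 lower (1 and 0 also at any fold) and 1 other pathway gene higher. Without the fold limit, 16 of the 43 and 24 others were higher and 2 and 7 lower. Other genes called lower numbered 1 at unadjusted p-values and 0 to 1 with a library left out. Leaving out a library gave a median of 0.0818 to 0.169 and 1 to 2 of the 43 lower at any fold. Between EBF2-OE and Vector, 1 of the 43 was lower without the low-count filter (TXNIP, also at any fold) and 1 at unadjusted p-values (ARRDC4), where 1 other gene was higher. The median was -0.09 to 0.16 with a library left out. Between Vector and Vehicle, 23 of the 43 were higher without the fold limit and 7 other genes lower at unadjusted p-values. Leaving out a library gave 0 to 23 of the 43 higher and 0 to 2 lower, 1 to 34 others higher and 0 to 14 lower, a median of 0.40 to 0.63, and at any fold 0 to 34 higher and 0 to 3 lower. Without the low-count filter, 2 of the 43 passed for the difference of effects. Shares of all genes passing without that filter were not counted.

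Signs turned only in genes without a call. The ranges below are for the genes named by rule in each comparison and are not a full list. With a library left out, others turned too, such as ENO2 in EBF2-OE (-0.351 to 0.430) and EGLN3 in Vector (-0.595 to 1.27). SLC2A3 in EBF2-OE turned to -0.003181 with DESeq2, -0.002757 with its size factors and -0.0108 without the filter. With a library left out, log2 fold changes in EBF2-OE ran from -0.0096 to 0.32 for SLC2A1, -0.36 to 0.28 for HK2, -0.17 to 0.49 for PFKFB4, -0.20 to 0.23 for LDHA, -0.32 to 0.49 for VEGFA, -0.37 to 0.19 for CA9, -0.0706 to 0.143 for TPI1, -0.34 to 0.43 for MLXIPL, -0.78 to 0.92 for SLC2A3, -0.0628 to 0.236 for HK1, -0.0915 to 0.138 for EGLN1, -1.45 to 0.91 for EGLN3, -0.0351 to 0.637 for PDK3, -0.29 to 0.19 for PDK1, -0.135 to 0.308 for PGK1, -0.0822 to 0.133 for ENO1, -0.85 to 0.86 for ANKRD37, -0.61 to 0.63 for ADM and -0.0773 to 0.311 for PFKM. In GSK-LSD1 they ran from -0.303 to 0.0241 for ARRDC4, -0.133 to 0.0299 for PFKFB3, -0.0837 to 0.328 for SLC2A3 and -0.0379 to 0.019 for GPI, and in Vector from -0.30 to 0.41 for ARRDC4 and -0.147 to 0.0738 for EGLN1.

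With the library number as a replicate block, counts with the fold limit were as without it, and 15 instead of 16 genes were higher at any fold under GSK-LSD1 (TPI1, edgeR adjusted p = 0.0713). The deviations of same-numbered libraries correlated at 0.345 between Vector and EBF2-OE and at -0.0324 between Vehicle and GSK-LSD1, over genes, with 2 pairs each. Same-numbered Vector and EBF2-OE libraries thus varied together in part, and what they share besides the number was not tested. The main fits were unpaired because the labels do not say what the numbers stand for. The Vector and Vehicle groups share 1 number and were not blocked.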
